A study of Mus musculus with 4 samples.

Results

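Ribosome biogenesis factors are the nucleolar proteins that transcribe, cut, modify and fold ribosomal RNA (rRNA) and load ribosomal proteins onto it. A list of 36 such genes was followed in sorted epithelial cells of the mouse stomach corpus, the acid- and enzyme-secreting body of the stomach. The list was chosen with earlier results of these data known. All 36 symbols are among the 55335 rows of the deposited expression table, and 35 of them reached the mean level at which genes were tested.

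The study has 4 libraries, 2 for each of 2 cell fractions. All came from Iqgap3-2A-tdTomato reporter mice on the C57BL/6 strain, 6 to 8 weeks old, which make the fluorescent protein tdTomato along with Iqgap3, a scaffold protein linked to dividing cells. Living cells with the epithelial surface protein EpCAM were sorted into IQ3pos (tdTomato-positive, labelled Iqgap3high) and IQ3neg (tdTomato-negative, labelled Iqgap3low/neg). Pools of 3 mice gave IQ3pos_1909A and IQ3neg_1909B, and pools of 4 mice gave IQ3pos_1910A and IQ3neg_1910B. SMART-Seq2, which copies whole transcripts into cDNA and amplifies them by PCR without molecular identifiers, was used for all. The reporter follows transcription of a single locus and names no cell type, and pooling hides the spread between mice.

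Ribosome assembly starts in the nucleolus, where RNA polymerase I makes a long rRNA precursor. Small nucleolar ribonucleoproteins (snoRNPs) guide chemical marks onto it: box C/D particles place 2′-O-methyl groups and H/ACA particles place pseudouridines. The small subunit processome then folds and cuts one part of the precursor, and separate factors mature the large subunit. Cells that grow and divide spend much of their transcription on this work, and the transcription factor MYC, which binds E-box sequences, is known to raise many of these genes.

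Values are CPM, counts per 1000000 reads assigned to genes, and differences are IQ3pos minus IQ3neg on log2(CPM + 1). The libraries held 90714929 reads (IQ3pos_1909A), 279125309 (IQ3pos_1910A), 115016307 (IQ3neg_1909B) and 418401263 (IQ3neg_1910B). Composition differed between the fractions: 4 secretory transcripts (Clps, Pla2g1b, Pgc and Chia1) took 6.00% and 2.11% of the IQ3pos reads, against 50.8% and 48.9% of the IQ3neg reads. CPM of all other genes move against such a share, and the median difference of the 13019 tested genes was 0.68 (1.60-fold) in CPM and, over the 13093 genes that pass the same minimum after rescaling with TMM factors, 0.04. These factors are built so that most genes balance. Members are therefore read against these medians. Iqgap3 stood at 0.220 CPM in IQ3pos_1909A (20 reads) and 9.32 CPM in IQ3pos_1910A (2602 reads), against 0.0435 CPM in IQ3neg_1909B (5 reads) and 0.452 CPM in IQ3neg_1910B (189 reads). It was higher in the IQ3pos library within each pool size, but IQ3pos_1909A lay below IQ3neg_1910B, so the transcript itself did not order all 4 libraries by their labels.

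As a group the factors took a larger share of the IQ3pos reads. Their summed level was 2194 CPM in IQ3pos_1909A and 3142 CPM in IQ3pos_1910A, against 563 CPM in IQ3neg_1909B and 873 CPM in IQ3neg_1910B. The median factor stood at 31.0 and 46.8 CPM in the IQ3pos libraries and at 7.47 and 11.4 CPM in the IQ3neg libraries. Both IQ3pos values lay above both IQ3neg values for 28 of the 35 tested factors (80.0%), while 40.9% of all tested genes did the same. In TMM-scaled CPM the count was 24 (68.6%), beside 24.3% of all genes. The list was chosen with earlier results of these data known and was not matched to all genes for level. Contrasts with all genes are therefore a description. The median difference of the 35 factors was 1.62, which is 0.94 above the median of all genes, and 1.06 after TMM scaling, which is 1.02 above it. Without IQ3pos_1909A the median in CPM was 2.15, which is 1.32 above all genes. Both values were the highest among the fits with a library left out, and the cause was not tested.

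No single factor passed the test over all 13019 genes. By limma-trend with Benjamini-Hochberg adjustment over all genes, 0 of 35 factors were called higher and 0 lower at 0.05, and the same held for all 13019 genes (0% called in either direction). With only genes averaging 5 CPM or more, limma called 6 of 32 factors higher, Dkc1, Nhp2, Npm1, Ncl, Nop58 and Wdr12, beside 7.83% of genes, and 0 lower, beside 1.06%. Over all 13019 genes the smallest adjusted p of a factor was 0.0659 and the smallest of any gene 0.0542, with 2 libraries per fraction. At an unadjusted p under 0.05, 19 factors (54.3%) were higher, beside 18.2% of all genes, and 0 were lower, beside 4.98%. After TMM scaling 0 factors passed in either direction (0% of genes higher and 0.137% lower), and at an unadjusted p under 0.05 the counts were 9 higher (25.7%), beside 6.7%, and 0 lower, beside 7.78%. The edgeR quasi-likelihood test on the recovered reads called 0 of 36 factors (0.0535% of genes higher and 0.214% lower), with 9 factors higher, beside 5.29%, and 1 lower, beside 10.8%, at an unadjusted p under 0.05. DESeq2 called 6 factors higher, Dkc1, Nhp2, Gar1, Npm1, Ncl and Wdr12 (5.45% of all genes), and 1 lower, Nop2 (8.3%). At an unadjusted p under 0.05 DESeq2 had 12 factors higher, beside 10.8%, and 1 lower, beside 12.7%. All p-values rest on how far pooled libraries of a fraction lie apart, which can include technical spread.

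**Figure D1:**
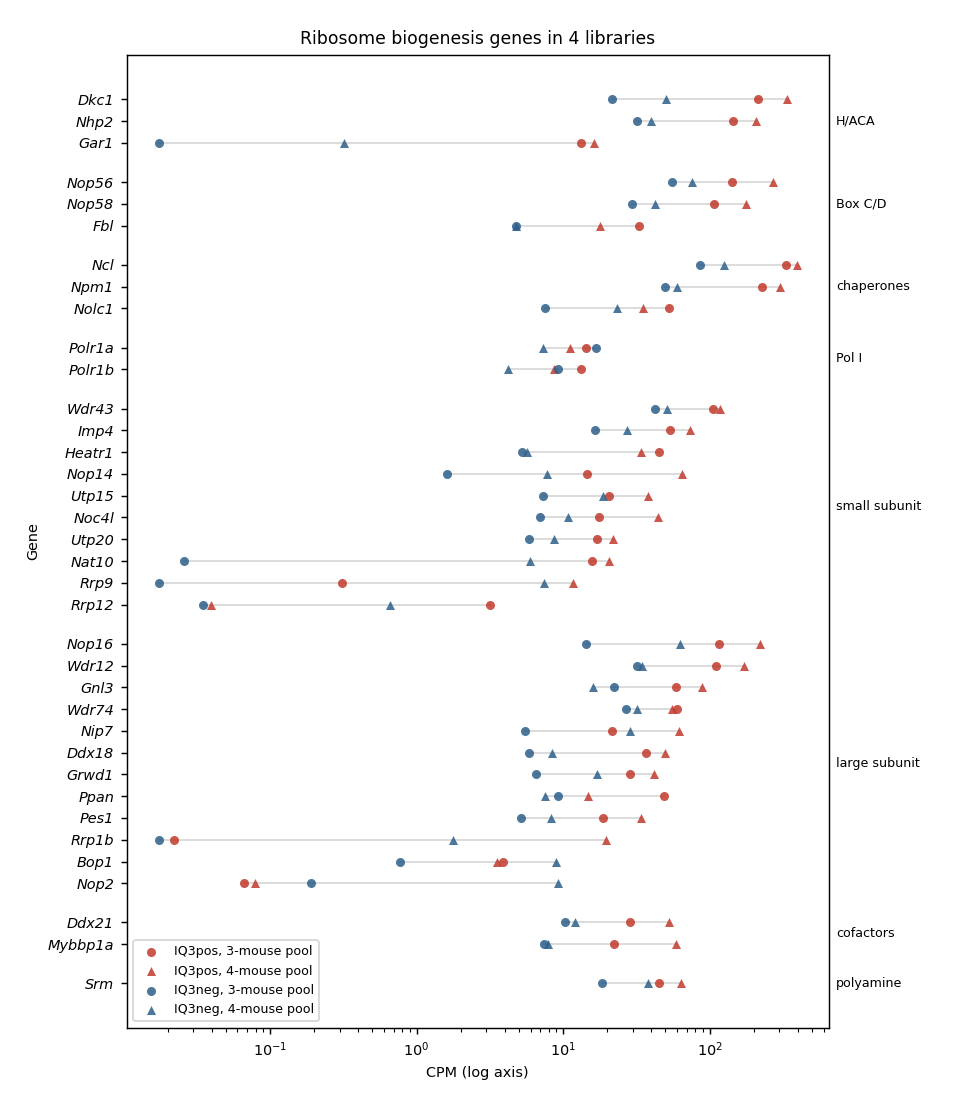
CPM (log axis) of the 36 ribosome biogenesis genes, ordered by role, in the 2 IQ3pos libraries (red) and the 2 IQ3neg libraries (blue), with circles for the 3-mouse and triangles for the 4-mouse pools. For 28 genes both red points lie to the right of both blue ones, and for Nop2 both lie to the left.

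The 3 H/ACA core genes on the list stood furthest apart as a role. Dkc1 encodes dyskerin, the pseudouridine synthase of the particle, and was at 216 and 338 CPM in IQ3pos, against 21.5 and 50.6 CPM in IQ3neg. Nhp2, its RNA-binding partner, was at 145 and 208 CPM in IQ3pos, against 32.2 and 40.0 CPM in IQ3neg. Gar1, which completes the active particle, was at 13.3 and 16.3 CPM in IQ3pos, against 0.0174 CPM (2 reads) and 0.320 CPM (134 reads) in IQ3neg. For all 3 both IQ3pos values lay above both IQ3neg values, beside 40.9% of all genes, and also after TMM scaling, beside 24.3%. Their differences were 2.99 ± 0.52 (SE) for Dkc1, 2.24 ± 0.38 for Nhp2 and 3.76 ± 0.94 for Gar1, with limma adjusted p of 0.0659, 0.0659 and 0.102. After TMM scaling the differences were 2.30, 1.55 and 3.40. The 2 reads of Gar1 in IQ3neg_1909B make its ratio in the 3-mouse libraries 765, with a 95% counting interval of 211 to 6320, and the 134 reads in IQ3neg_1910B make it 50.9 in the 4-mouse libraries. Nop10, the remaining core protein and not on the list of 36, was named after its values were seen. It was at 103 and 102 CPM in IQ3pos, against 48.9 and 50.6 CPM in IQ3neg. Its difference of 1.03 ± 0.35 (0.34 after TMM scaling) was below the 1.62 of the median factor.

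The DNA before the start of the H/ACA genes is printed because these genes had the largest differences as a role. Each stretch is 120 bases on the gene's own strand, ending where the GENCODE gene begins, from the RefSeq promoter table (GRCm38.p6), with capitals marking matches to 4 motifs searched on both strands: the E-box CACGTG, the ETS-type motif CCGGAAG, the GC box GGGCGG and the TATA motif TATAAA.
Dkc1 (chrX:75095734-75095853, plus strand): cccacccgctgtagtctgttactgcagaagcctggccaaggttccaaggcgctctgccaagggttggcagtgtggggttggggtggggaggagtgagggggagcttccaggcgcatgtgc
Nhp2 (chr11:51619615-51619734, plus strand): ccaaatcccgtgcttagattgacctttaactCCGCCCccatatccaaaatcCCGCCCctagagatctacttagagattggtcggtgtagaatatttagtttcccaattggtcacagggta
Gar1 (chr3:129831397-129831516, minus strand): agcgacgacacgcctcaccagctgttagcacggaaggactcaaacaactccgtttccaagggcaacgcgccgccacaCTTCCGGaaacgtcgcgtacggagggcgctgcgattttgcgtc
The Nhp2 stretch holds a pair of GC boxes on the opposite strand and the Gar1 stretch an ETS-type motif on the opposite strand, 43 bases before the RefSeq start. Nhp2 has an ETS-type motif as well, 23 bases before its RefSeq start and thus past the GENCODE start.
Nhp2 (chr11:51619740-51619766, plus strand): acttgaaaacCCGGAAGtgatgtcgga
No motif of the 4 is in the Dkc1 stretch. Upstream of it, 189 bases before the RefSeq start, Dkc1 has a TATAAA match on the opposite strand.

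The box C/D core showed the same order of libraries with smaller differences. Nop56, a scaffold of the particle, was at 143 and 271 CPM in IQ3pos, against 55.5 and 75.8 CPM in IQ3neg. Nop58, its paralogue on the other side of the particle, was at 107 and 176 CPM in IQ3pos, against 29.4 and 42.6 CPM in IQ3neg. Fbl encodes fibrillarin, the methyltransferase, and was at 33.2 and 17.9 CPM in IQ3pos, against 4.80 and 4.74 CPM in IQ3neg. Both IQ3pos values lay above both IQ3neg values for each of these genes, beside 40.9% of all genes, and also after TMM scaling, beside 24.3%. Differences were 1.59 ± 0.43 for Nop56, 1.93 ± 0.44 for Nop58 and 2.14 ± 0.74 for Fbl, and 0.89, 1.24 and 1.50 after TMM scaling. Limma adjusted p were 0.116, 0.0857 and 0.173. Snu13, the fourth core protein of the particle and the most abundant of the other snoRNP genes, was at 81.5 and 149.7 CPM in IQ3pos, against 38.7 and 44.1 CPM in IQ3neg, a difference of 1.40 ± 0.44.

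Several factors are host genes of snoRNAs. By the GENCODE annotation, 7 of the 36 genes host 21 annotated snoRNA genes: 5 lie in Nop56, 4 in Nop58, 3 each in Ncl, Wdr43 and Gnl3, 2 in Ppan and 1 in Dkc1. Of the 21, 10 lie within an exon of at least 1 annotated host transcript, and the others do not. The table lists 17 of the 21 at 0 in every library, and the 4 others above 0 in a single 4-mouse library each, the highest being Snord110 in Nop56 at 1.03 CPM in IQ3pos_1910A. SMART-Seq2 copies RNA from its poly(A) tail, which mature snoRNAs lack, so their levels were not measured here. A box C/D snoRNA of each of 2 hosts is shown, with its box C and box D in capitals, because these boxes are what Nop56, Nop58 and Fbl assemble on.
Snord110 in Nop56 (chr2:130275506-130275573, plus strand): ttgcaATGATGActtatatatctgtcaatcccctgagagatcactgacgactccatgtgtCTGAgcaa
Snord82 in Ncl (chr1:86356261-86356330, minus strand): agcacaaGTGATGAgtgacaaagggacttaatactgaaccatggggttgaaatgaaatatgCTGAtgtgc

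Nucleolar chaperones and scaffolds were among the most abundant members. Ncl encodes nucleolin, which binds nascent rRNA, and was at 334 and 394 CPM in IQ3pos, against 85.5 and 126 CPM in IQ3neg. Npm1 encodes nucleophosmin, the main protein of the outer nucleolar layer, and was at 228 and 302 CPM in IQ3pos, against 49.3 and 60.4 CPM in IQ3neg. Nolc1, a scaffold that holds snoRNPs, was at 53.0 and 35.1 CPM in IQ3pos, against 7.52 and 23.3 CPM in IQ3neg. Both IQ3pos libraries were above both IQ3neg libraries for all 3 genes, beside 40.9% of all genes, and also after TMM scaling, beside 24.3%. The differences were 1.80 ± 0.33 for Ncl, 2.24 ± 0.34 for Npm1 and 1.62 ± 0.69 for Nolc1 (limma adjusted p = 0.0666, 0.0659 and 0.238). After TMM scaling they were 1.10, 1.55 and 0.95. Nolc1 differed between the pools: its gap was 2.66 in the 3-mouse libraries and 0.57 in the 4-mouse libraries, the 4-mouse value being close to the 0.57 of the median gene there.

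The 2 RNA polymerase I subunits on the list formed the only role in which no gene separated the fractions in CPM. Polr1a, the largest subunit, was at 14.4 and 11.2 CPM in IQ3pos, against 16.9 and 7.31 CPM in IQ3neg. Polr1b, which forms the active centre with it, was at 13.3 and 8.71 CPM in IQ3pos, against 9.22 and 4.21 CPM in IQ3neg. Values of the fractions overlapped for both genes, with differences of 0.17 ± 0.76 and 0.69 ± 0.85 (limma adjusted p = 0.908 and 0.644). After TMM scaling they were -0.48 for Polr1a and 0.06 for Polr1b, and under median-of-ratios scaling Polr1b was at -0.03. Among 12 other tested Pol I subunits and initiation factors, 0 passed the test, and the median difference was 1.46. Of these, 9 had both IQ3pos values above both IQ3neg values (7 after TMM scaling), beside 40.9% of all genes (24.3%). Rrn3, which links Pol I to its promoter factors, was at 530 and 477 CPM in IQ3pos, against 232 and 163 CPM in IQ3neg. Cd3eap, a Pol I subunit, had the largest difference of that list, with 6.91 and 17.8 CPM in IQ3pos and 2.15 and 1.42 CPM in IQ3neg. Ttf1, the Pol I terminator protein, had the lowest, with 8.23 and 2.80 CPM in IQ3pos and 8.23 and 8.55 CPM in IQ3neg. After TMM scaling both IQ3pos values of Ttf1 lay below both IQ3neg values, as for 22.3% of all genes. Whether the pair of large subunits differs from the other roles was not tested.

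Small subunit factors number 10 on the list, of which 9 were tested. Both IQ3pos values lay above both IQ3neg values for 8 of them (6 after TMM scaling), beside 40.9% of all genes (24.3%). Their median difference was 1.52 (0.84 after TMM scaling). Wdr43, a processome protein that joins the precursor early, had the highest level, with 105 and 118 CPM in IQ3pos and 42.2 and 51.3 CPM in IQ3neg, a difference of 1.24 ± 0.36. Heatr1, a large scaffold of the same early module, was at 45.1 and 34.0 CPM in IQ3pos, against 5.27 and 5.67 CPM in IQ3neg, a difference of 2.63 ± 0.62 (limma adjusted p = 0.0933). Utp15, also of that module, had 20.5 and 38.2 CPM in IQ3pos and 7.29 and 18.9 CPM in IQ3neg. So these 3 genes separated the fractions in CPM, and after TMM scaling Wdr43 and Heatr1 did, but Utp15 did not. They are only the members of the module on the list, so the module as a whole was not examined.

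Among later processome proteins, Nop14 and Noc4l lay further apart between the IQ3pos libraries than Imp4 and Utp20 did. Nop14 was at 14.6 and 65.0 CPM in IQ3pos, against 1.63 and 7.81 CPM in IQ3neg, a difference of 2.74 ± 1.06. Noc4l, the homologue of a yeast partner of Nop14, was at 17.7 and 44.1 CPM in IQ3pos, against 6.95 and 10.8 CPM in IQ3neg, a difference of 1.59 ± 0.73. Both genes were higher in the 4-mouse than in the 3-mouse library of each fraction, and their IQ3pos and IQ3neg values did not overlap in CPM. After TMM scaling Noc4l overlapped and Nop14 did not. Imp4, which brings the U3 snoRNA to the precursor, was at 53.7 and 73.6 CPM in IQ3pos, against 16.6 and 27.4 CPM in IQ3neg. Utp20, a large scaffold, was at 17.1 and 21.9 CPM in IQ3pos, against 5.83 and 8.65 CPM in IQ3neg. Their differences were 1.52 ± 0.49 and 1.33 ± 0.70.

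The remaining small subunit genes had few reads in at least 1 library. Nat10, the enzyme that acetylates small subunit rRNA, had the largest difference of this role, 2.84 ± 1.19 (limma adjusted p = 0.230), from 15.9 and 20.5 CPM in IQ3pos and 0.0261 CPM (3 reads) and 5.96 CPM (2492 reads) in IQ3neg. Without IQ3neg_1909B its difference was 1.45. Rrp9, a U3 snoRNP protein, had the smallest tested one, 0.48 ± 1.62, from 0.309 and 11.8 CPM in IQ3pos and 0.0174 CPM (2 reads) and 7.45 CPM in IQ3neg. The IQ3pos value of Rrp9 was the higher within each pool size, although the fractions overlapped. Rrp12, which helps export the subunits, was not tested because its mean was under 1 CPM. It had 286 reads in IQ3pos_1909A and 11 in IQ3pos_1910A, against 4 in IQ3neg_1909B and 276 in IQ3neg_1910B. These give ratios of 90.7 in the 3-mouse libraries (95% counting interval 35.0 to 335) and 0.0597 in the 4-mouse libraries (0.0295 to 0.109), so the direction turned between the pools. Counting intervals leave out transcripts lost before amplification.

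Large subunit factors number 12, all tested, with a median difference of 1.60 (1.06 after TMM scaling). Both IQ3pos values lay above both IQ3neg values for 8 of them (7 after TMM scaling), beside 40.9% of all genes (24.3%). Nop16, which acts in early large subunit particles, had the highest level, with 116 and 219 CPM in IQ3pos and 14.3 and 62.9 CPM in IQ3neg, a difference of 2.36 ± 0.76. Ddx18, an RNA helicase, had the largest difference, 2.44 ± 0.60 (limma adjusted p = 0.0989), from 36.6 and 49.5 CPM in IQ3pos and 5.84 and 8.39 CPM in IQ3neg. Ddx18 kept nearly the same gap in each pool size, 2.46 in the 3-mouse and 2.43 in the 4-mouse libraries.

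Pes1, Bop1 and Wdr12 form the PeBoW complex, which is needed to cut the spacer before the large subunit rRNA. Wdr12 was at 110.2 and 173 CPM in IQ3pos, against 31.7 and 34.6 CPM in IQ3neg, a difference of 2.03 ± 0.40 (limma adjusted p = 0.0732). Pes1 was at 18.9 and 34.2 CPM in IQ3pos, against 5.16 and 8.22 CPM in IQ3neg, a difference of 1.81 ± 0.72. Bop1 was at 3.88 and 3.55 CPM in IQ3pos, against 0.774 and 8.90 CPM in IQ3neg. So Wdr12 and Pes1 separated the fractions and Bop1 did not: the IQ3pos values of Bop1 lay between those of the IQ3neg libraries, and its difference of 0.17 ± 1.19 was -0.32 after TMM scaling.

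Gnl3 encodes nucleostemin, a GTPase of large subunit maturation, and was at 58.8 and 89.4 CPM in IQ3pos, against 22.4 and 15.9 CPM in IQ3neg, a difference of 1.89 ± 0.48. Ppan, a processing factor, was at 49.0 and 14.8 CPM in IQ3pos, against 9.30 and 7.58 CPM in IQ3neg, and Grwd1, which binds a ribosomal protein before assembly, at 28.7 and 41.4 CPM in IQ3pos, against 6.50 and 17.0 CPM in IQ3neg. These 3 did not overlap between the fractions in CPM, and Grwd1 overlapped after TMM scaling. Wdr74 had 60.1 and 55.1 CPM in IQ3pos and 27.1 and 32.0 CPM in IQ3neg, also with no overlap, but its difference of 0.94 ± 0.42 was 0.26 after TMM scaling. Nip7 overlapped, with 21.7 and 61.9 CPM in IQ3pos and 5.47 and 28.6 CPM in IQ3neg.

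Rrp1b and Nop2 rested on few reads in part of the libraries. Rrp1b had 0.0220 CPM (2 reads) and 19.5 CPM (5443 reads) in IQ3pos and 0.0174 CPM (2 reads) and 1.78 CPM (744 reads) in IQ3neg. It was therefore near the counting floor in both 3-mouse libraries, and its difference of 1.45 ± 1.62 came from the 4-mouse libraries. Nop2 encodes a methyltransferase of large subunit rRNA and was the single factor with both IQ3pos values below both IQ3neg values, an order shared by 14.2% of all tested genes. It had 6 reads (0.0661 CPM) and 22 reads (0.0788 CPM) in IQ3pos, against 22 reads (0.191 CPM) and 3844 reads (9.19 CPM) in IQ3neg. The difference was -1.70 ± 1.22 (limma adjusted p = 0.460). One library, IQ3neg_1910B, holds nearly all reads of the gene. In the 3-mouse libraries the ratio was 0.346, with a 95% counting interval of 0.115 to 0.879.

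The 2 nucleolar cofactors with several roles also had both IQ3pos values above both IQ3neg values, beside 40.9% of all genes. The same held after TMM scaling, beside 24.3%. Ddx21, a helicase that also acts on Pol I transcription, was at 28.8 and 53.0 CPM in IQ3pos, against 10.3 and 12.1 CPM in IQ3neg, a difference of 1.72 ± 0.59. Mybbp1a, a nucleolar protein that binds transcription factors, was at 22.2 and 58.6 CPM in IQ3pos, against 7.43 and 7.92 CPM in IQ3neg, a difference of 2.10 ± 0.71. Srm is spermidine synthase, a polyamine enzyme and not an assembly factor. It was at 44.8 and 63.5 CPM in IQ3pos, against 18.5 and 38.3 CPM in IQ3neg, a difference of 0.97 ± 0.54 that was 0.29 after TMM scaling, where the fractions overlapped. Among 9 other tested polyamine genes the median difference was 0.68, that of the median gene. Of these, 4 had both IQ3pos values above (1 of 10 after TMM scaling), beside 40.9% of all genes (24.3%). Odc1, the first enzyme of the pathway, was at 25.3 and 70.0 CPM in IQ3pos, against 4.92 and 25.4 CPM in IQ3neg.

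**Figure D2:**
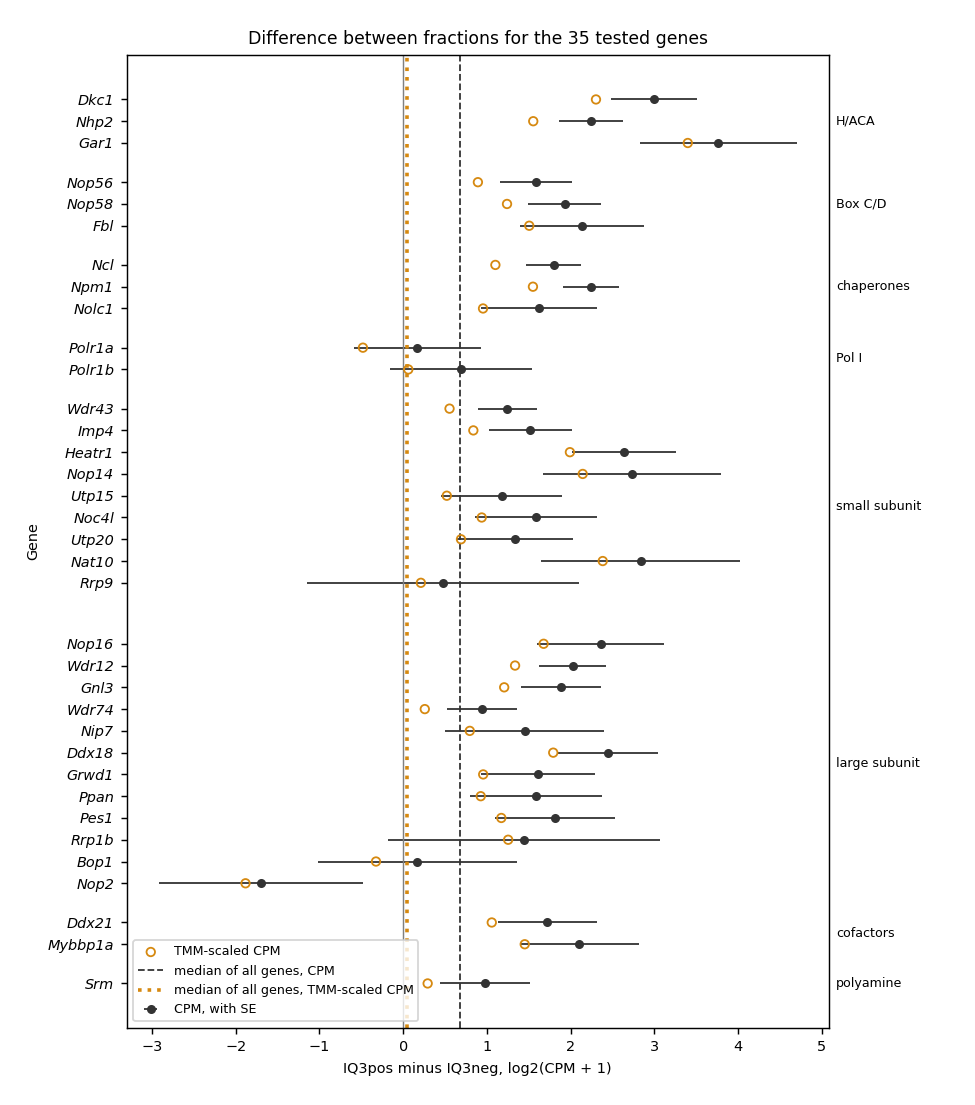
Difference between IQ3pos and IQ3neg on log2(CPM + 1) for the 35 tested genes, with filled points and bars for the limma estimate ± SE and open circles for TMM-scaled CPM; the vertical lines mark 0 and the median of all genes on each scale (0.68 and 0.04). In CPM 31 genes lie to the right of the median gene, and the H/ACA genes Gar1 and Dkc1 lie furthest right.

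Both pool sizes gave the shift separately. In the 3-mouse libraries 34 of the 36 factors were higher in IQ3pos, as were 66.2% of all tested genes, with a median difference of 1.73, beside 0.72 for all genes, and a range of -0.22 (Polr1a) to 4.04 (Nat10). In the 4-mouse libraries 33 were higher, as were 66.4% of all tested genes, with a median of 1.68, beside 0.57 for all genes, and a range of -3.24 (Nop2) to 3.71 (Gar1). Within both pool sizes 29 of 35 tested factors (82.9%) lay above the median gene, while 31.6% of all tested genes did. Polr1a, Polr1b, Rrp9, Rrp1b, Bop1 and Nop2 are the 6 tested factors that did not. The labels do not say that same-numbered libraries came from the same animals.

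**Figure D3:**
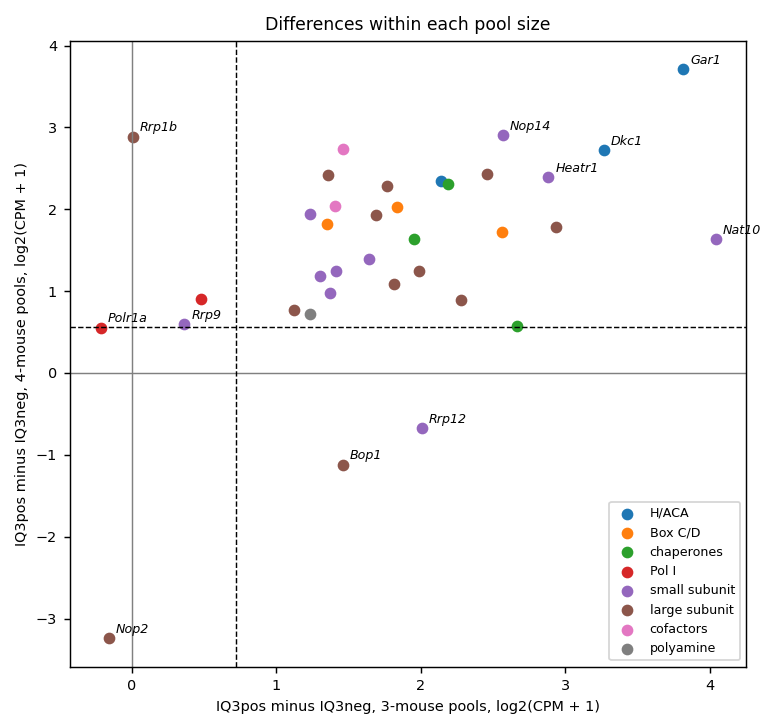
IQ3pos minus IQ3neg on log2(CPM + 1) in the 3-mouse libraries (horizontal) and the 4-mouse libraries (vertical), 1 point per gene, coloured by role; dashed lines mark the median of all tested genes in each. Most points fill the upper right quadrant, Bop1 and Rrp12 lie to the right but below 0, and Nop2 lies below 0 in both.

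Libraries of the same fraction disagreed by 10-fold or more for 6 of the 35 tested factors (17.1%), beside 35.6% of all tested genes. These are Nop2, Rrp9, Bop1, Rrp1b, Gar1 and Nat10, and each has a value under 1 CPM in at least 1 library. Rrp12, not tested, did so as well. The other 29 factors had a median difference of 1.72 and a range of 0.17 to 2.99, and 26 of them had both IQ3pos values above both IQ3neg values. Since the 7 were set aside after their values were seen, these counts are a description. The share among all genes under 10-fold apart within each fraction is not at hand, so the 26 has no background beside it. Setting aside genes whose libraries disagree can raise such a count in any list. The factors were not matched to all genes for level. Under 1 CPM were 3 of the 36 factors in IQ3pos_1909A, 2 in IQ3pos_1910A, 7 in IQ3neg_1909B and 2 in IQ3neg_1910B. The shares of all tested genes under 1 CPM were 25.6%, 20.1%, 19.4% and 13.5% in the same order.

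The same direction held for most other genes of ribosome biogenesis, with smaller medians. Of 139 tested protein factors outside the 36, 0 passed the test in either direction, 91 (65.5%) had both IQ3pos values above both IQ3neg values, beside 40.9% of all genes, and the median difference was 1.21, which is 0.53 above all genes. After TMM scaling 60 (43.2%) did, beside 24.3%. For 46 other small subunit factors the median was 1.07 and 30 had both IQ3pos values above, and for 49 other large subunit factors the median was 1.15 and 29 did. These counts were 18 and 17 after TMM scaling. For 10 other snoRNP proteins and assembly factors the median was 1.05 and 7 did, and for 22 genes of the nuclear exosome and RNase MRP, which trim and cut rRNA precursors, it was 1.47 and 16 did, with counts of 5 and 13 after TMM scaling. Among 11 noncoding snoRNA host genes the median was 1.11 and 6 did (4 after TMM scaling). All these lists stood above the 0.68 of the median gene, and none held a called gene.

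Single genes of those lists show the spread. Ruvbl2, an ATPase that helps build snoRNPs, was at 99.1 and 150.1 CPM in IQ3pos, against 11.5 and 26.0 CPM in IQ3neg, the largest difference of the snoRNP list at 2.74 ± 0.54. Exosc8 of the exosome core was at 198 and 244 CPM in IQ3pos, against 30.3 and 37.6 CPM in IQ3neg, and Exosc7 at 311 and 385 CPM in IQ3pos, against 68.7 and 76.8 CPM in IQ3neg. Their limma adjusted p were 0.0605 and 0.0617, a little below the lowest of the 36 factors. Fcf1, a small subunit nuclease-fold protein, was at 278 CPM in both IQ3pos libraries, against 95.6 and 87.2 CPM in IQ3neg. Gnl3l, a relative of Gnl3, was the most abundant other large subunit factor and overlapped, with 364 and 244 CPM in IQ3pos and 290.0 and 197 CPM in IQ3neg.

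At the low end of these lists 1 library often decided the sign. Bud23, a methyltransferase of small subunit rRNA, had 0.165 and 34.3 CPM in IQ3pos and 12.8 and 11.2 CPM in IQ3neg. Mtrex, the helicase that feeds the exosome, had 2.91 and 100.3 CPM in IQ3pos and 44.0 and 24.6 CPM in IQ3neg, and Rrp8 had 11.0 and 0.0788 CPM in IQ3pos and 6.00 and 11.8 CPM in IQ3neg. In each case the IQ3pos libraries lay on either side of the IQ3neg values or far from each other. After TMM scaling Bud23 and Mtrex still overlapped, while both IQ3pos values of Rrp8 lay below both IQ3neg values, as for 22.3% of all genes. Gas5, the most abundant noncoding snoRNA host, was at 151 and 178 CPM in IQ3pos, against 56.4 and 56.4 CPM in IQ3neg, while Snhg17 had 0.0661 and 6.66 CPM in IQ3pos and 7.52 and 5.35 CPM in IQ3neg.

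**Figure D4:**
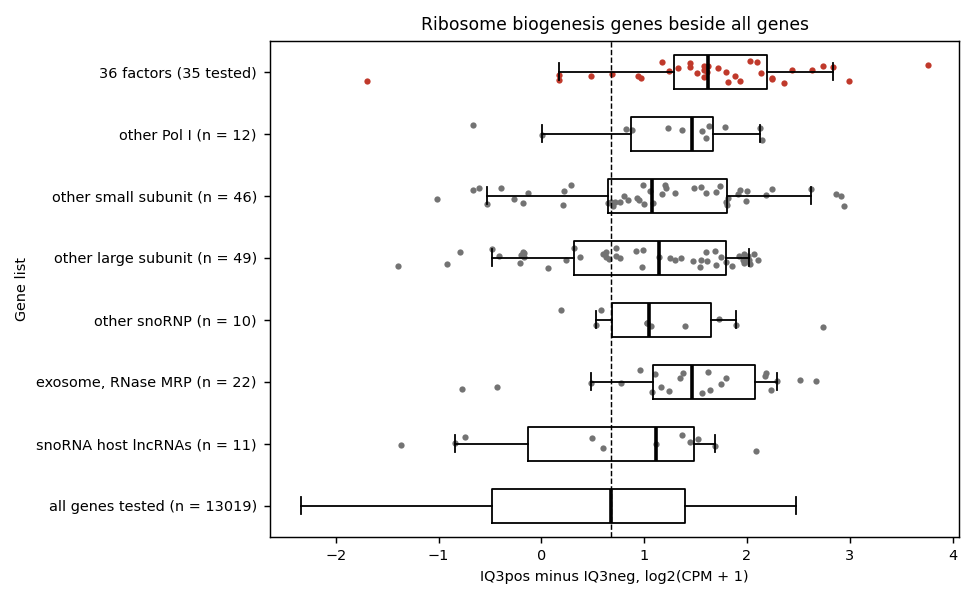
Difference between IQ3pos and IQ3neg on log2(CPM + 1) for the 36 factors (35 tested, red), for lists of other ribosome biogenesis genes and for all 13019 tested genes; points are genes, boxes span the quartiles with the median as a line, whiskers reach the 5th and 95th percentiles, and the dashed line is the median of all genes. The 36 factors have the highest median of the lists shown, 1.62.

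Products and regulators of the pathway were set beside it. Of 80 tested cytosolic ribosomal protein genes, 79 had both IQ3pos values above both IQ3neg values, with a median difference of 1.75, and of 77 mitochondrial ribosomal protein genes 71 did, with a median of 1.57. After TMM scaling 74 of 79 and 55 of 77 did. Of all tested genes, 40.9% did in CPM and 24.3% after TMM scaling. Myc was at 36.7 and 98.5 CPM in IQ3pos, against 4.56 and 31.1 CPM in IQ3neg, a difference of 2.20 ± 0.99 (limma adjusted p = 0.253), with no overlap in CPM. After TMM scaling Myc overlapped, at 25.8 and 86.0 in IQ3pos and 6.14 and 37.5 in IQ3neg, and of the 8 tested genes of the MYC list 5 had both IQ3pos values above in CPM and 1 after TMM scaling. Mxd3, a relative that shares a binding partner with MYC, was at 56.3 and 57.2 CPM in IQ3pos, against 3.17 and 4.83 CPM in IQ3neg. Mxd1, an antagonist of MYC, overlapped, with 2.87 and 23.9 CPM in IQ3pos and 4.28 and 24.2 CPM in IQ3neg. Among 8 genes of the 5S RNP and the p53 response to failed assembly, 7 had both IQ3pos values above in CPM and 4 after TMM scaling (40.9% and 24.3% of all genes). Rpl5 was one of them on both scales, with 245 and 261 CPM in IQ3pos and 60.5 and 91.1 CPM in IQ3neg. Cdkn1a, the p53 target that halts the cell cycle, had 56.6 and 31.6 CPM in IQ3pos and 147 and 47.0 CPM in IQ3neg, which overlap. After TMM scaling its IQ3pos values, 39.9 and 27.6, lay below its IQ3neg values, 198 and 56.8, as for 22.3% of all genes. Hexim1, of the same list, was above in CPM and below after TMM scaling.

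E-boxes were looked up in the promoter windows because MYC binds them. RefSeq windows of 300 bases, from 250 before to 50 after the start, matched 31 of the 36 symbols, and CACGTG, which reads the same on both strands, is in 7 of them (22.6%). The share was 8.09% over 27025 genes with a window and 11.7% over the 9554 of these that were tested. Each match is shown with up to 10 bases on either side on the gene's strand, with the E-box in capitals.
Nop2 (chr6:125131813-125131838, plus strand): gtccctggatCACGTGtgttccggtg
Wdr43 (chr17:71616222-71616247, plus strand): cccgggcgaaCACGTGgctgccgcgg
Utp20 (chr10:88826765-88826787, minus strand): gcactaactaCACGTGaggaaaa
Mybbp1a (chr11:72441357-72441376, plus strand): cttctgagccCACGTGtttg
Pes1 (chr11:3963967-3963992, plus strand): ctaggcagggCACGTGcgggaggaag
Imp4 (chr1:34439698-34439723, plus strand): ggtcttagacCACGTGacatcccaaa
Grwd1 (chr7:45830740-45830765, minus strand): gccggagtcgCACGTGtgaaaccgga
A match is a run of letters and not a shown binding site, and Nop2, the factor with the lowest difference, has an E-box too, as do Mybbp1a at 2.10 and Wdr43 at 1.24. Other motifs in the 31 windows were the ETS-type CCGGAAG in 9 (29.0%, beside 20.5% of tested genes), the GC box GGGCGG in 22 (71.0%, beside 67.0%) and TATAAA in 3 (9.68%, beside 9.55%), each on either strand. An ETS-type match and an E-box can stand in the same window, as in Nop2 and Grwd1.

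Markers of cell types and of division moved with the fractions too. All 10 proliferation markers had both IQ3pos values above both IQ3neg values, with sums of 1245 and 2914 CPM in IQ3pos and 133 and 266 CPM in IQ3neg. The same held for 5 of 5 pit cell markers (9580 and 9774 CPM in IQ3pos, 1018 and 1373 CPM in IQ3neg) and 6 of 6 parietal markers (4332 and 3139 CPM in IQ3pos, 459 and 571 CPM in IQ3neg), and for 1 of 3 mucous neck markers (5175 and 8646 CPM in IQ3pos, 1181 and 2168 CPM in IQ3neg). The opposite order was seen for 8 of 9 chief cell markers (61974 and 22080 CPM in IQ3pos, 518106 and 503988 CPM in IQ3neg) and 9 of 10 enteroendocrine markers (445 and 289 CPM in IQ3pos, 17697 and 11718 CPM in IQ3neg). Of all tested genes, 40.9% had both IQ3pos values above both IQ3neg values and 14.2% had both below. After TMM scaling both IQ3pos values were above for 10 proliferation, 5 pit cell, 5 parietal and 1 mucous neck markers, beside 24.3% of genes. The 4 epithelial markers summed to 3165 and 4408 CPM in IQ3pos and 1212 and 2731 CPM in IQ3neg. Immune markers summed to 333 and 56.1 CPM in IQ3pos and 389 and 79.8 CPM in IQ3neg, stromal and endothelial ones to 4.85 and 1.89 CPM in IQ3pos and 11.1 and 2.32 CPM in IQ3neg, and immediate early genes to 1258 and 1118 CPM in IQ3pos and 1309 and 1297 CPM in IQ3neg. No marker of these lists was at 0 in all 4 libraries. The endocrine marker Gast was at 0 in both 3-mouse libraries, and Plk1, Aqp4, Pecam1, Cd3e, Cd79a, Pdgfra and Cdh5 were at 0 in a single IQ3neg library each. Their part in the values of the ribosome biogenesis genes was not tested, and in sorted bulk RNA fewer cells of a type and less RNA per cell cannot be told apart.

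The 36 genes lie on 17 chromosomes of GRCm38, with at most 5 on any of them, so no single region carries the list. By the annotation 16 of them share exon bases with a gene on the opposite strand, the most being Nop14 at 5.27% of its exon bases. The strand setting of the counting is not given in the sources used here, and reads of those stretches cannot be assigned to a strand.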

How the data were processed

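SMART-Seq2 RNA-seq of 4 sorted libraries was read from a deposited table in CPM, made by the authors with no composition factor: each column sums to 1000000. Per the submitters' processing notes, the genome was GRCm38/mm10 and the tools STAR 2.7.1a, edgeR and, in Subread 2.0.0, featureCounts. Values are multiples of 1 read per library, and those above 0 came out whole within 0.05 (100% in 3 libraries, 99.98% in IQ3neg_1910B), so reads were recovered. Repeated symbols (109 rows) were kept apart.

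Differences were tested in R 4.3.3 with limma 3.58.1 (limma-trend, no block, two-sided) on log2(CPM + 1). Genes averaging 1 CPM or more entered, with Benjamini-Hochberg adjustment at 0.05. The fit had 2 residual and 3.61 prior degrees of freedom. The pseudocount understates differences of low genes. Alternatives were other pseudocounts, filters, scalings, left-out libraries, a block, and edgeR 4.0.16 and DESeq2 1.42.0 on the reads; limma and edgeR were checked on simulated data. Intervals for ratios of few reads are exact binomial and cover counting error only.

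Members and lists were chosen with earlier results of these data known. Values in every library are given, per role, for the genes of highest level, highest difference and lowest difference, and for most others. In the other lists genes were named by that rule. Positions are from GENCODE vM21 and RefSeq (GRCm38.p6), 1-based. Npm1, Fbl, Rrp12, Srm and Bop1 matched no promoter window.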

Additional observations from a re-analysis of the deposited data

Results flagged for a closer look

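Rrp12, Bop1 and Polr1a had IQ3pos minus IQ3neg differences of opposite sign in the 4-mouse and 3-mouse libraries, and the difference between the pool sizes was not tested, with 1 library of each fraction per pool size. For Rrp12 the differences were -0.68 in the 4-mouse and 2.00 in the 3-mouse libraries on log2(CPM + 1), a change of -2.68. For Bop1 they were -1.12 and 1.46, a change of -2.58. For Polr1a they were 0.55 and -0.22, a change of 0.77.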

How the results depend on the processing

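The main test called 0 factors higher. A filter at a mean of 5 CPM gave 6, beside 7.83% of genes, and DESeq2 gave 6, beside 5.45%. The replicate block gave 8, and TMM scaling plus the replicate block, an alternative added after seeing the data, gave 2. No share of all genes is at hand for the fits with a block, so their counts are not read as a result about the factors. The number called lower was 1 with DESeq2, beside 8.3%. Leaving out each library in turn gave 0 calls each time, with the lone library of a fraction assumed to vary like the others. Same-numbered libraries deviated together with r = 0.148 across 13019 genes, but with 2 pairs and no label that ties the numbers to shared animals the block is not an established pairing. The median difference of the factors, 1.62, was 1.06 with TMM scaling (also with the block), 0.96 with median-of-ratios scaling, 0.75 without the 20 most abundant genes, 1.03 with edgeR and 1.07 with DESeq2, and ran from 1.35 to 2.15 with a library left out. Relative to all genes it was 0.94, ran from 0.90 to 1.02 under these settings and from 0.76 to 1.32 with a library left out, and was 1.60 with no filter, where the cause was not tested. The number of factors with both IQ3pos values above was 21 to 28, and 30 to 33 with a library left out, where fewer values must be ordered.

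Of 485 values of single factors under 14 alternatives, 23 changed sign, all in 5 genes. Polr1a was at -0.48 with TMM scaling (also with the block), -0.57 with median-of-ratios scaling, -0.77 without the 20 most abundant genes, -0.73 with edgeR, -0.77 with DESeq2, and from -0.39 to 0.72 with a library left out. Bop1 was at -0.32, -0.39, -0.53, -1.35 and -0.96 in the same order, and from -1.07 to 1.41 with a library left out. Polr1b was at -0.0295 with median-of-ratios scaling, -0.20 without the abundant genes, -0.0724 with edgeR and -0.13 with DESeq2. Wdr74 was at -0.0237 without the abundant genes, and Rrp9 at -0.13 with edgeR and from -1.16 to 2.12 with a library left out. The cause was not tested. Gar1, Nat10, Rrp9, Rrp1b, Rrp12 and Nop2 have 2 to 6 reads in at least 1 library, where counting intervals are wide.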
